A study of Mus musculus with 18 samples.

Results

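The regions described here are 3220 autosomal tiles of 1 kb that were partly methylated in mouse embryonic stem cells rescued with WT DNMT1. They were selected on their WT values from 154801 tiles, of which they made up 2.08%. A tile needed 3 or more CpGs with at least 5 reads in all 18 libraries. A member had a pooled WT level of 30% to 50% and a level of 20% to 60% in each WT library. For each used CpG the listed CpGs within 250 bp either side were counted, itself included. The median of these counts over the tile, its CpG density, was at most 20 in a member. That density limit was met by 127801 tiles, and a further 833 tiles met the WT range but were denser. Tiles of the density allowed share only this limit and were not matched to the members within it. Their median density was 9 outside the members and 10 in the members. Because WT values chose the members, every comparison with WT below is a description without a test.

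CpG methylation is copied to the new strand after DNA replication by DNMT1, which acts on hemimethylated sites that UHRF1 binds. Where copying is incomplete or is offset by removal, a site can settle between the fully methylated and the unmethylated state. In embryonic stem cells, intermediate methylation is known at the edges of unmethylated CpG islands, at enhancers and at imprinted loci, where one parental copy is methylated. A pooled level does not tell these states apart: a share of cells with full methylation and partial methylation in every cell give the same counts.

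All 18 libraries came from embryonic stem cells with knockout of Dnmt1 (1KO cells) grown in serum with leukemia inhibitory factor. The cells stably carried the pPyCAGIP vector, were selected with puromycin, and expressed WT DNMT1 or a form with tryptophan replaced by alanine: W796A, W465A, W465A/W796A, W464A/W465A or W464A/W465A/W796A. Each of the 6 groups had 3 biological replicates, and several stable lines were made per group; which line gave which library, and the strain of the cells, are not given in the sources used here. DNA was profiled by enhanced reduced representation bisulfite sequencing, which reads restriction fragments in which bisulfite has converted unmethylated cytosine. Empty-vector knockout cells were not used here, so the level without any DNMT1 is not known for these tiles.

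The DNA of 6 members is shown because partial methylation took different forms along it; 300 bases of each are given. The sequences are the + strand of the GRCm38 reference from RefSeq, written 5′ to 3′, and the capitals mark the CpGs whose reads were used. They come from Rusc1 (chr3:89089149-89089448, promoter), the coding exon of Gm128 (chr3:95240624-95240923), an intron of Gng7 (chr10:80999362-80999661), intergenic DNA near Pkp2 (chr16:16198533-16198832), an intron of Ywhag (chr5:135931570-135931869) and an intron of Rnpep (chr1:135264199-135264498).
Rusc1: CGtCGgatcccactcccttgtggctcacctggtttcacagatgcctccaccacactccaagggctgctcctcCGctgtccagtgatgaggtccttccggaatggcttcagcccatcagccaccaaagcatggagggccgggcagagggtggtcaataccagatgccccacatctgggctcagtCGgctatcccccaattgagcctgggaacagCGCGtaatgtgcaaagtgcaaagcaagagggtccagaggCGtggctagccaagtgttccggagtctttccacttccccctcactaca
Gm128: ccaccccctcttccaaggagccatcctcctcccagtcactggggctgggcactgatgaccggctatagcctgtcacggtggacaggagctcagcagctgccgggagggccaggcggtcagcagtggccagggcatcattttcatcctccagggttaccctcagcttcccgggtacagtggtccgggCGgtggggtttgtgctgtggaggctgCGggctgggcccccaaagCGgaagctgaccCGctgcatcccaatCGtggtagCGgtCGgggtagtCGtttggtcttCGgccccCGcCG
Gng7: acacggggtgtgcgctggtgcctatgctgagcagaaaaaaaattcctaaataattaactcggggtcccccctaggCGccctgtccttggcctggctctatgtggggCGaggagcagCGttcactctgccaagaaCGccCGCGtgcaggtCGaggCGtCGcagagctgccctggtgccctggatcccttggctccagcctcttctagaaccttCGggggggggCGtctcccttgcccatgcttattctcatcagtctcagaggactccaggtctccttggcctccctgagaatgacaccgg
near Pkp2: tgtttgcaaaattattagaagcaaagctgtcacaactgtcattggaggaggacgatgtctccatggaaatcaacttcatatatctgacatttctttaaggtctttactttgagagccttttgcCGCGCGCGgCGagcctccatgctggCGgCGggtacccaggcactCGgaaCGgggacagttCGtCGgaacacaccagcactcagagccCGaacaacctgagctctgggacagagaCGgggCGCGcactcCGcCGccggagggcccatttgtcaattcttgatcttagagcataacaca
Ywhag: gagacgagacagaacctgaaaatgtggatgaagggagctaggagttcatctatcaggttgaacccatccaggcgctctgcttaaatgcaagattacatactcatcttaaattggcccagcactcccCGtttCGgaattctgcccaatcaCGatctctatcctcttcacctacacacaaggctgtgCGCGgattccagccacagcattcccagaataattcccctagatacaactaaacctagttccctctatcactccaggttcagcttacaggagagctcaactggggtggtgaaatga
Rnpep: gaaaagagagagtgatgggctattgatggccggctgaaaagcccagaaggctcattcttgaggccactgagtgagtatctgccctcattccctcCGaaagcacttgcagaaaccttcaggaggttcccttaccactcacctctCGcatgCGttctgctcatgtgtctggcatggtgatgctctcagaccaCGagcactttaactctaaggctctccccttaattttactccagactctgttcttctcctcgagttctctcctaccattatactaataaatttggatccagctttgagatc

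The 6 tiles reached a similar average in different ways. In Rusc1, a RUN and SH3 domain adaptor gene, the 7 printed CpGs had 60.7% to 80.7% methylation in WT, and the last CpG of the tile, beyond the printed stretch, had 0%. In Gm128, a predicted gene, the 11 printed CpGs had 13.7% to 43.8% in WT. The 13 used CpGs before them on the + strand had 56.2% to 94.5%, and the gene lies on the - strand. In Gng7, which encodes a G protein gamma subunit, the 11 printed CpGs had 33.3% to 89.5% in WT. The 3 used CpGs before them on the + strand had 2.08% to 11.6%, and this gene too lies on the - strand. In Ywhag, the gene of 14-3-3 gamma, no CpG stood apart: the 5 CpGs had 45.7% to 57.1%. In Rnpep, which encodes aminopeptidase B, the 4 printed CpGs had 0%, 84.6%, 0% and 78.9% in order. The tile near Pkp2, a desmosome gene, was intermediate over the dense part, where its 17 printed CpGs had 25.9% to 55.2%.

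**Figure D1:**
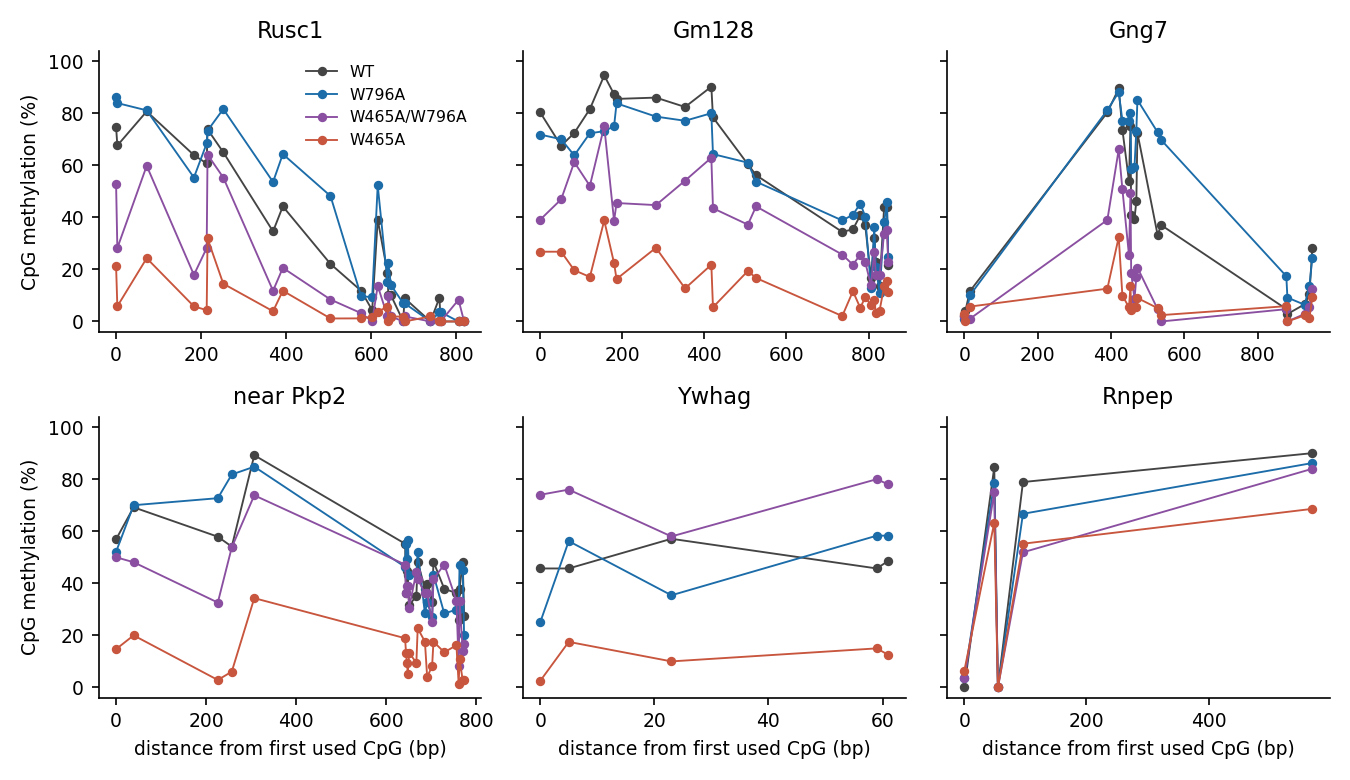
Pooled methylation (%) of single CpGs against the distance in bp from the first used CpG of the tile, in WT, W796A, W465A/W796A and W465A, for the 6 tiles; lines join CpGs that were read and say nothing of the DNA between them. Rusc1 falls from 74.8% to 0% in WT along the tile, and the Rnpep CpGs have 0%, 84.6%, 0% and 78.9% in order, and the last used CpG is higher than these.

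Depth did not separate the groups: libraries held 59776439 to 138978763 CpG calls, and the median member had 51 to 115 reads per library. Both upper ends were WT replicate 2, while WT replicates 1 and 3 had 64958276 and 59776439 calls. It held 508137 reads in members, against 230412 and 220543. The pooled WT level sums reads, so this library weighed most in choosing the members. The spread within WT and within W796A was wider than in the other groups. Over members, the WT libraries had 31.7%, 48.1% and 39.9% for replicates 1, 2 and 3, and the W796A libraries 32.3%, 54.8% and 43.7%. Replicate 1 was lowest and replicate 2 highest in both groups, also over the other tiles of the density allowed (62.5% and 78.4% in WT, 57.6% and 82.2% in W796A). Calls against W796A were rerun without single libraries for the counts over all members and for Lhx9, Nefm, Izumo2 and Fbln1; for other named tiles this was not run.

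Members had about the WT level in W796A, far less in W465A, and a level between these in W465A/W796A. The mean member level was 39.9% ± 8.23 (SD, n = 3) in WT and 43.6% ± 11.3 in W796A. It was 12.3% ± 3.54 in W465A, with libraries at 16.4%, 10.2% and 10.4%. In W465A/W796A it was 26.3% ± 3.37, with libraries at 30.1%, 23.7% and 25.2%, all above every W465A library and below every W796A library. W464A/W465A had 8.96% ± 1.31 (8.09%, 10.5% and 8.32%) and W464A/W465A/W796A 9.09% ± 1.64 (8.06%, 11% and 8.22%), so these libraries overlapped each other and W464A/W465A replicate 2 lay above W465A replicate 2.

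**Figure D2:**
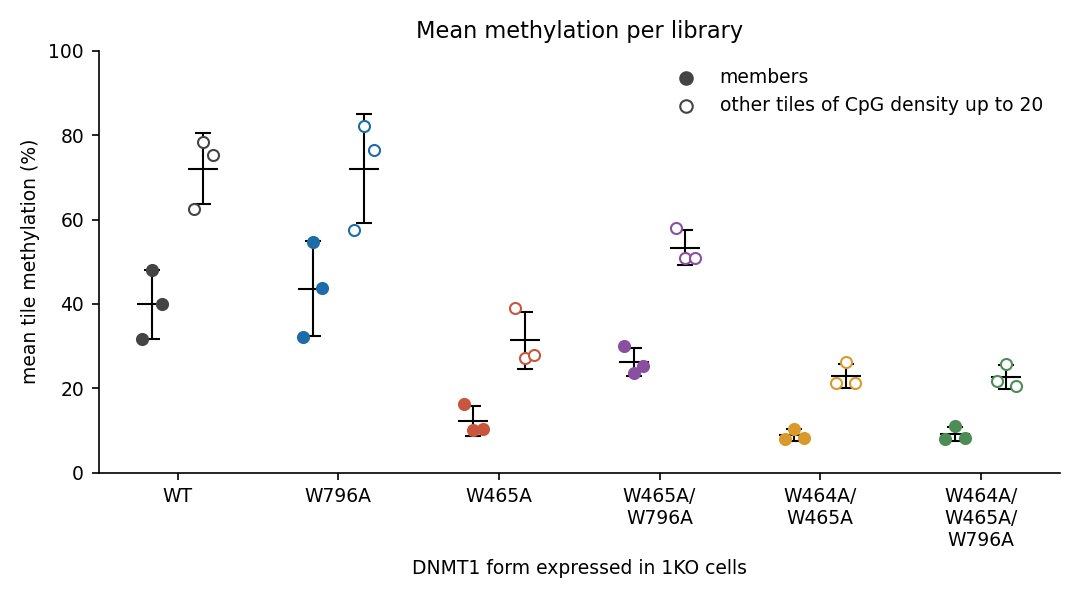
Mean methylation (%) over the 3220 members (filled) and over the 124581 other tiles with CpG density up to 20 (open) in each of the 18 libraries; bars give the mean and SD of 3 libraries. Members lie between 8.06% and 16.4% in all libraries with W465A that lack W796A or also carry W464A, and between 23.7% and 30.1% in W465A/W796A.

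Relative to W796A, the group that did not choose the members, the members held less methylation than the other tiles of the density allowed in each of the other 4 mutants. W465A had 28.3% of the W796A mean over members and 43.6% over the other tiles. W465A/W796A had 60.4% and 74.0%, W464A/W465A 20.6% and 31.8%, and W464A/W465A/W796A 20.9% and 31.5%. From a WT level of 10% upward the share was higher at each higher level: tiles with a pooled WT level of 10% to 30% had 22.7% of the W796A mean in W465A, those at 30% to 50% had 27.3%, those at 50% to 70% had 34.2%, those at 70% to 90% had 44.9% and those at 90% or more 53.4%. W465A/W796A had 51.4% to 81.3% over these strata in the same order. Tiles under 10% in WT broke it in W465A, with 23.7%. They also broke it in W464A/W465A, with 19.7% against 17.3% in the next stratum, and in W464A/W465A/W796A, with 19.6% against 17.4%.

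**Figure D3:**
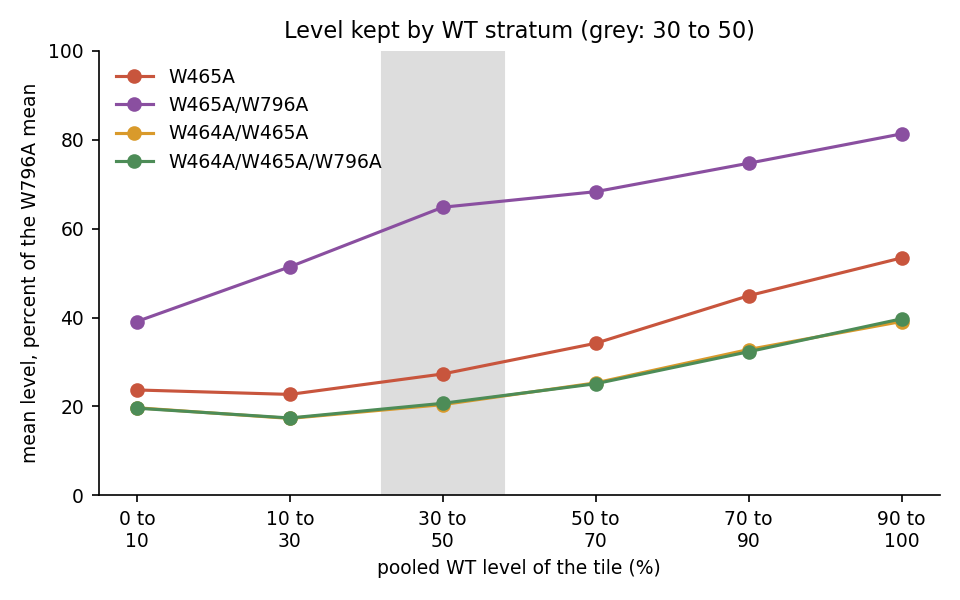
Mean level of each of 4 mutants as a percent of the W796A mean, by pooled WT level of the tile, for all tiles of CpG density up to 20; the grey band marks 30% to 50%, without the limits on single WT libraries. From the second stratum on, all 4 lines are higher at each higher WT level, in W465A from 22.7% to 53.4%.

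Most single members were under 20% in the 3 groups with the lowest means. In W796A, 2955 of 3220 members (91.8%) had a pooled level of 20% to 60%. In W465A/W796A 2419 (75.1%) did, in W465A 392 (12.2%), in W464A/W465A 123 and in W464A/W465A/W796A 103. Almost none were above 60% in W465A/W796A (7 members), and in W796A 224 were. Asking that all 3 libraries lie in the range left 1520 members in W796A and 1345 in W465A/W796A.

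**Figure D4:**
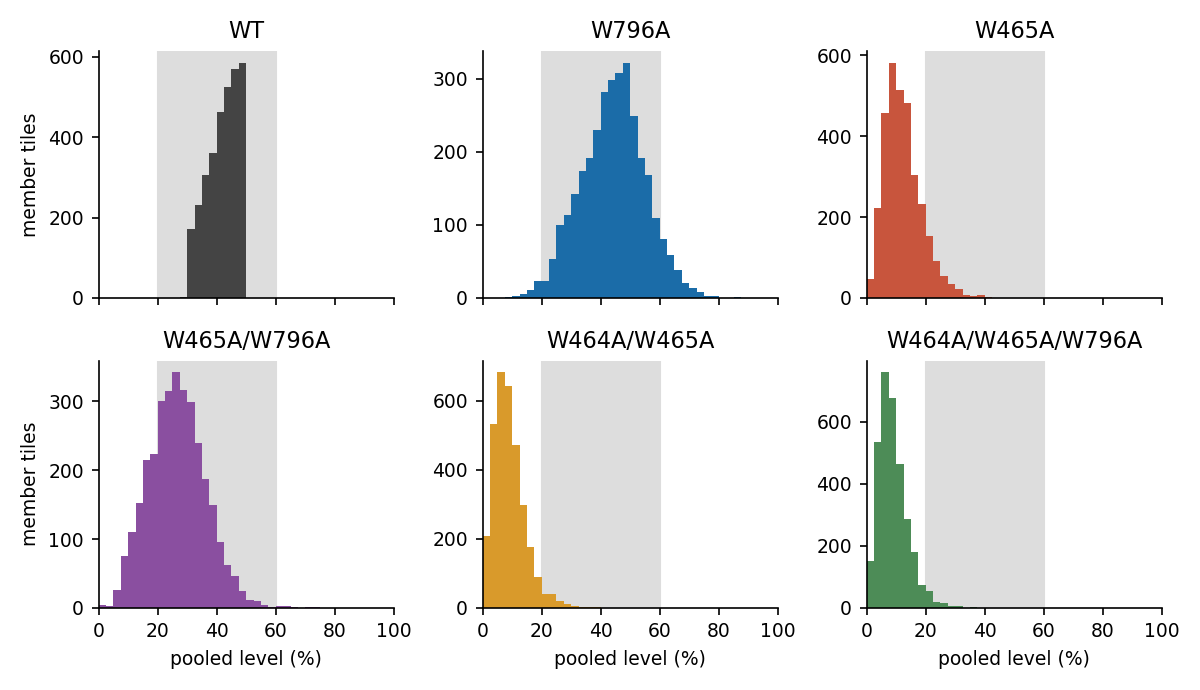
Number of members by pooled level (%) in each group, in bins of 2.5 points, with a count axis of its own per panel; the grey band marks 20% to 60%. The WT panel is bounded at 30% and 50% by the selection, 91.8% of members stay in the band in W796A and 12.2% in W465A.

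Comparisons that use no WT library were tested per tile in all 154801 tiles with a quasi-binomial model over the 15 mutant libraries; calls needed at least 10 points between pooled levels and an adjusted p under 0.05. The question they address is which substitution changes the methylation that DNMT1 keeps, alone or with another. The labels call the replicates biological but do not say whether each is a separate line, so the p-values measure the spread between these libraries.

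Adding W796A to W465A went with higher methylation. The difference of mean member levels was 14 points (SE 2.82, 3 libraries each), the median member differed by 13.8 points and the median of all tiles by 20.2. Of the members, 901 (28%) were called higher and 0 lower, against 31.0% of all tiles called higher and 0.00129% lower, so the members' share was near that of all tiles. Among the other tiles of the density allowed it was 34.6%. With limma 613 members were called higher (19%, against 14% of all tiles called) and with edgeR 714 (22.2%, against 20.7%), so the order of members and all tiles changed with the model. An unadjusted p under 0.05 was reached by 1463 members. The count rested on few libraries: the share was 7.64% (all tiles 9.75%) without W465A replicate 2, 0.932% (1.19%) without W465A replicate 3, 1.09% (1.32%) without W465A/W796A replicate 1, 17.5% (20.2%) without W465A/W796A replicate 3 and 44.0% (50.8%) without W796A replicate 1. With an offset for each library's mean level, which removes shifts common to all tiles, 34 members were called higher and 1 lower (1.09%, all tiles 1.03%).

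Among named tiles, those whose libraries do not overlap, Ywhag and Usp7 had the largest rises. The Ywhag tile (chr5:135931001-135932000, intron, 5 CpGs, printed above) had 15.0%, 4.0% and 12.0% in the W465A libraries and 87.2%, 52.0% and 64.0% in the W465A/W796A libraries, a pooled difference of 61.7 points (adjusted p = 0.00472). All W465A/W796A libraries were above all W465A libraries. The W796A libraries had 31.4%, 58.4% and 37.8% (pooled 46.67%), so they overlapped those of W465A/W796A. The tile was not called between W465A/W796A and W796A (adjusted p = 0.0542). The tile in an intron of Usp7 (chr16:8716001-8717000, 3 CpGs), a deubiquitinase gene, rose from 19.5%, 1.96% and 8.33% to 77.2%, 50% and 62.7% (adjusted p = 0.00879). Both tiles fell again where W464A was present too: the Ywhag libraries of W464A/W465A/W796A had 3.08%, 20% and 21.2% and those of Usp7 5.05%, 13.9% and 20.4% (adjusted p = 0.000776 and 0.00176, and 0.0810 and 0.134 with the library offset). Without 1 library at a time the adjusted p of this rise ranged from 7.54e-05 to 0.0471 for Ywhag and from 0.000257 to 0.0629 for Usp7, where 2 of 15 such fits missed the threshold, which left out replicate 3 of W465A (0.0549) or replicate 1 of W465A/W796A (0.0629).

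Adding W464A to W465A/W796A went with lower methylation in most members. The mean difference was -17.2 points (SE 2.16), the median member differed by -17.3 points and the median of all tiles by -29.9. Of the members, 1984 (61.6%) were called lower and 0 higher, against 69.8% of all tiles called lower and 0% higher. Among the other tiles of the density allowed 80.9% were called. Limma called 1895 members lower (58.9%, all tiles 63.3%) and edgeR 1883 (58.5%, all tiles 66.2%). In 2340 members all 3 W464A/W465A/W796A libraries lay under all 3 W465A/W796A libraries (72.7%, against 74.5% of all tiles). The share called was 33.2% (all tiles 46.2%) without W465A/W796A replicate 1 and 38.2% (53.9%) without W464A/W465A/W796A replicate 1. With the library offset 4 members were called, all lower (0.124%, all tiles 0.357%).

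Adding W465A to W796A also went with lower methylation. The mean difference was -17.2 points (SE 6.79), and the medians were -17.2 points for members and -16.5 for all tiles. Here 1080 members (33.5%) were called lower and 4 higher (0.124%), against 25.2% of all tiles called lower and 0.257% higher. Among the other tiles of the density allowed 28.1% were called either way. Limma called 519 members lower (16.1%, against 20.3% of all tiles), and edgeR 631 lower and 1 higher (19.6%, against 19.9%), so the members' share was above that of all tiles in the first model but not in these. The share called moved with single libraries. It was 60.4% (all tiles 66.0%) without W796A replicate 1, 12.7% (5.99%) without W796A replicate 2 and 22.4% (11.6%) without W796A replicate 3. Leaving out W465A/W796A replicate 2 gave 19.5% (11.9%), and leaving out its replicate 3 gave 16.5% (8.47%). Fitting only these 6 libraries left 105 members, all lower (3.26%, all tiles 1.19%), and the library offset gave 281 lower and 52 higher (10.3%, all tiles 5.80%).

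In the remaining 3 tests no member was called. W464A/W465A against W465A had 0 members called higher or lower with the quasi-binomial model, limma and edgeR. Of all tiles, the quasi-binomial model and limma called 0% either way, and edgeR called 1 tile (0.000646%). In the quasi-binomial model 138 members had an unadjusted p under 0.05, and the mean difference was -3.36 points (SE 2.18). For W464A/W465A/W796A against W464A/W465A the 3 models again called 0 members (0% of all tiles with the quasi-binomial model, either way), 21 had an unadjusted p under 0.05, and the mean difference was 0.130 points (SE 1.21). The difference that went with W796A was 14 points on the W465A background and 0.130 on that of W464A/W465A, and the difference between these differences was 13.9 points (SE 3.07). As an interaction on the logit scale it was called in 0 members (0% of all tiles, either way), with 469 at an unadjusted p under 0.05; limma called 1 member, edgeR 9, a fit of only the 4 groups 224 (6.96%, against 13.4% of all tiles), and the fit without W796A replicate 1 called 170 (5.28%, against 11.8%).

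By annotation, members were shifted toward gene starts and CpG-dense sites. Promoters, taken as 500 bp either side of a protein-coding TSS, held 230 members (7.14%, against 3.28% of all tiles of the density allowed). Exons held 324 (10.1%, against 12.4%), introns 1256 (39.0%, against 45%) and intergenic DNA 1410 (43.8%, against 39.3%). A CpG-dense site was a CpG with more than 20 listed CpGs within 250 bp either side, itself included. Within 500 bp of such a site lay 696 members (21.6%, against 7.90%), and within 2000 bp of a TSS 655 (20.3%, against 9.82%). The median member was 12353.5 bp from a TSS and the median of the other tiles 20489 bp; GC content was 49.7% and 48.0%. These are counts over the tiles that the assay covered, with no test.

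Promoter members had the lowest mean of the 4 classes in W465A/W796A. They had 44.2% ± 11.7 (SD, n = 3) in W796A, 10.8% ± 2.58 in W465A and 22.2% ± 2.5 in W465A/W796A, while intron members had 42.9% ± 11.1, 12.6% ± 3.68 and 27.0% ± 3.61. W465A/W796A thus reached 50.1% of the W796A mean in promoter members, 60.4% in exon members, 62.9% in intron members and 60% in intergenic members. Of the promoter members 120 (52.2%) were called lower or higher in W465A/W796A against W796A, against 10.5% of all promoter tiles. This class share and that of the repeat class below are over tiles of any CpG density. They include tiles too dense to be members, so they are not matched to the members for density. A tile under 10% in W796A also cannot fall by the 10 points that a call needs. Such tiles were not counted by class, so the promoter shares do not set promoter members apart. All promoter tiles had the lowest share called of the 4 classes in every comparison with calls. Of all members, 4 were called higher in W465A/W796A against W796A, so at most 4 of the 120 were. Members with at least 50% of their CpGs in repeat-masked sequence numbered 334 (10.4%, against 11.1%), held 71.4% of the W796A mean in W465A/W796A, and were called in this comparison in 19.8%, against 32.0% of all tiles of that class. Differences between annotation classes were not tested.

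**Figure D5:**
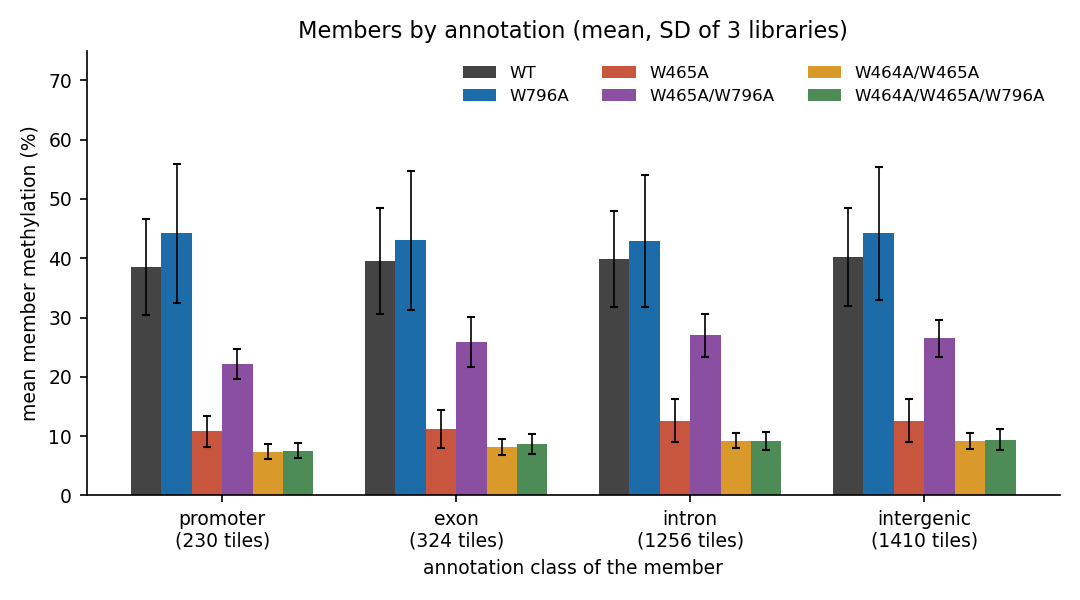
Mean methylation (%) of members in promoters, exons, introns and intergenic DNA in the 6 groups; bars start at 0 and error bars are the SD of 3 libraries. The classes lie close together in every group, with promoter members at 22.2% in W465A/W796A and the other classes at 25.9% to 27.0%.

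Members included mixtures of low and high CpGs as well as tiles with all used CpGs intermediate. The median member had 4 used CpGs, and the median number of reference CpGs per member tile was 17, so most CpGs of a tile were not seen. In W796A, 1150 members (35.7%) held both a CpG at 20% or less and a CpG at 70% or more. This compares with 4.35% of the other tiles of the density allowed. Of the 4837 such tiles that were at 30% to 50% in W796A without being members, 17.8% did. Another 782 members (24.3%) had all used CpGs between these levels. The median SD between the CpGs of a member was 20.7 points in W796A, and counting error alone would give 6.79. In WT the mixed members were 1137 (35.3%), and 1136 had all used CpGs between.

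In 946 of the 1150 mixed members (82.3%) all low CpGs lay on one side of all high CpGs. A tile with 1 low and 1 high CpG always meets this, so the count is no evidence of an order. Over all 1150 mixed members, the low CpGs were in denser surroundings in 586 (51.0%), the high CpGs in 304, and 260 were equal. Among the 420 with 6 or more CpGs, the low CpGs were in denser surroundings in 292 (69.5%), the high CpGs in 99, and 29 were equal. Of the 4054 low or high CpGs of mixed members, 74.4% were in the same class in WT.

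Highly methylated CpGs inside members had lower levels in the mutants with W465A than such CpGs elsewhere. CpGs at 70% or more in W796A had 26.1% ± 5.70 in W465A when in a member and 36.9% ± 7.33 in the other tiles (SD, n = 3), which is 33.7% and 45.2% of their W796A means. In W465A/W796A they had 47.4% ± 3.11 and 60.8% ± 4.13, or 61.1% and 74.5%. CpGs were put into these classes by W796A itself, so the W796A means are selected upward, and unequally: the same CpGs had 68.3% in WT against 77.5% in W796A in members, and 80.9% against 81.6% in the other tiles. The percentages of W796A are therefore not comparable between the sets without this difference.

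Some members held CpGs with almost no methylation over all libraries. A CpG at 2% or less over all 18 libraries was present in 894 members (27.8%), against 3.77% of the other tiles with a pooled WT level over 20%. In 327 members (10.2%) such a CpG lay within 50 bp of one at 70% or more in WT, as in Rnpep. Without these CpGs only 175 of the 894 stayed in the selected range. A cytosine that differs from the reference in these cells would also be read as unmethylated; its part was not tested. The 2326 members without such a CpG had 43.5% ± 12.2 in W796A and 25.4% ± 3.56 in W465A/W796A (SD, n = 3). They had 8.27% ± 1.23 in W464A/W465A and 11.3% ± 3.33 in W465A. As a percent of W796A, W465A was at 25.9% in these members and at 34.3% in the 894 with such a CpG, and 37.8% and 22.9% of them were called in W465A/W796A against W796A.

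Of the members, 3139 had no member beside them, 81 were in runs, and the longest run was 3 tiles. Many had no covered tile directly beside them: 838 had a covered tile 1 kb away on one side and 853 on the other. Of these neighbours 4.89% and 4.81% were members, against 2.52% of all tiles of the density allowed. The neighbours at 1 kb averaged 43.5% and 43.1% in W796A, but 32.9% and 33.6% of them were under 20% and 40.8% on both sides were over 60%. At 5 kb the average was 56.9% and 55.9%. Of the 1887 members with a covered tile within 2 kb, 517 had a tile under 20% and none over 60%, 867 the reverse, 207 both, and 296 only tiles between. Members beside low tiles alone had 22.2% in W465A/W796A and 10% in W465A, and those beside high tiles alone 27.8% and 13.3%.

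The lineage regulator list holds transcription factors that direct cell fate. Of 334 tiles of the density allowed in the 42 listed genes, 15 (4.49%) were members, against 2.52% of all such tiles. They averaged 41.4% in WT, 51.5% in W796A (all members 43.6%, a difference that was not tested), 14.9% in W465A and 22.1% in W465A/W796A. Their median difference between W465A/W796A and W796A was -35.2 points (all members -17.2, all tiles -16.5), with 9 of 15 called lower and 0 higher (all members 33.5% lower, all tiles 25.2%). Against W465A, W465A/W796A was higher in 1 of 15 (all members 28%, all tiles 31.0%), with a median of 3.78 points (all members 13.8). These counts were not rerun without single libraries.

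Gata4, a factor of endoderm and heart development, had 2 named member tiles. The one 3267 bp from its TSS (chr14:63248001-63249000, intron, 7 CpGs) had 23.4%, 40.4% and 55.8% in WT, 69.8%, 85.6% and 77.8% in W796A, and 10.2%, 22.1% and 24.3% in W465A/W796A. The W796A libraries were all above the WT libraries and all W465A/W796A libraries were below both, except that WT replicate 1 and W465A/W796A replicate 3 overlapped. The pooled difference between W465A/W796A and W796A was -60.4 points (adjusted p = 5.51e-05). The tile 941 bp from the TSS (chr14:63244001-63245000, 13 CpGs) had 53.1%, 73.2% and 55.9% in W796A and 9.78%, 12.1% and 7.61% in W465A/W796A (-51.3 points, adjusted p = 1.29e-05).

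The largest falls against W796A were in Lhx9 and Nefm. A 3-CpG tile in an intron of Lhx9 (chr1:138840001-138841000), a LIM homeobox gene, had 69.9%, 80.2% and 68.3% in W796A and 3.06%, 2.78% and 15.0% in W465A/W796A (-67.3 points, adjusted p = 0.000121). The tile 903 bp from the TSS of Nefm (chr14:68125001-68126000, 3 CpGs), the gene of a neurofilament subunit, had 38.9%, 80.0% and 77.3% in W796A and 0%, 0% and 2.38% in W465A/W796A (-64.6 points, adjusted p = 0.000671). In W464A/W465A/W796A it had 0 of 170 reads methylated, which allows up to 1.76%, for counting error only. This ranking is among members whose libraries do not overlap, outside chromosome 18, and both tiles kept an adjusted p under 0.05 in every alternative run on the same tiles. On the lineage regulator list, a coding-exon tile of Gata2 (13 CpGs) had 51.51% pooled in W796A and 18.27% in W465A/W796A (adjusted p = 0.00348), one of Pax2 (12 CpGs) 59.82% and 24.24% (adjusted p = 0.000947), and an intron tile shared by Foxp1 and Gm20696 37.36% and 23.06%, which was not called (adjusted p = 0.0882).

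Tfap2b lay nearest to the tile with the second highest W796A mean among members of 5 or more CpGs outside chromosome 18 (chr1:19242001-19243000, intergenic, 30134 bp away). It had 78.0%, 73.3% and 75.6% in W796A against 42.9%, 48.0% and 51.4% in WT, and 25%, 42.5% and 27.5% in W465A/W796A (adjusted p against W796A = 0.00535). The WT and W796A libraries did not overlap, but the tile was named for its W796A level and chosen on WT, so this is a description.

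A few members went the other way, with more methylation in W465A/W796A than in W796A. The Izumo2 promoter tile (chr7:44708001-44709000, 21 CpGs), at a gene of the sperm Izumo family, had 9.32%, 23.7% and 21.2% in W796A and 46.2%, 23.9% and 37.8% in W465A/W796A (17.9 points, adjusted p = 0.0451). An intron tile of Fbln1 (chr15:85233001-85234000, 6 CpGs), which encodes the matrix protein fibulin 1, had 12.1%, 25.2% and 19.2% against 67.4%, 28.8% and 44.8% (27.5 points, adjusted p = 0.0318). The groups barely separated in Izumo2, where the lowest W465A/W796A library exceeded the highest W796A library by a fraction of a point. These calls were weak: the threshold was missed in 15 of 22 alternative fits for Izumo2 and in 8 of 22 for Fbln1. Against W465A the same tiles rose by 31.6 and 37.8 points (adjusted p = 0.00547 and 0.00811).

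Pluripotency genes held 4 members of 90 tiles (4.44%), 3 in Esrrb, an orphan nuclear receptor of the stem cell network, and 1 in Otx2, a factor of the primed state and the anterior brain. The Otx2 tile (chr14:48672001-48673000, intron, 3 CpGs) had 53.3%, 74.1% and 66.7% in W796A and 11.1%, 33.3% and 19.3% in W465A/W796A (adjusted p = 0.00395), like the lineage regulators. The 3 intron tiles of Esrrb were not called against W796A, with differences of -26.2, -4.01 and 5.15 points (adjusted p = 0.0595, 0.757 and 0.477). The first (chr12:86423001-86424000, 3 CpGs) had 51.1%, 58.3% and 40.5% in W796A and 25%, 44.4% and 9.52% in W465A/W796A, so its libraries overlapped. The last, with 4 CpGs (chr12:86492001-86493000), had 19%, 31.2% and 15.1% in W796A and 33.9%, 18.2% and 29.3% in W465A/W796A, and against W465A (13.8%, 7.32% and 6.67%) it rose by 19.5 points (adjusted p = 0.0205). The germline list had 0 members of 53 tiles.

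Genes of the methylation machinery held 3 members of 131 tiles (2.29%). The Dnmt1 intron tile (chr9:20953001-20954000, 5 CpGs, 615 bp from a TSS) lies in the knocked-out gene; the labels do not say which part of the gene was disrupted. It had 45.2%, 59.0% and 39.1% in WT, 14.9%, 12.0% and 4.17% in W465A and 32.2%, 20.5% and 34.9% in W465A/W796A (19 points, adjusted p = 0.0481). Tet1 and Tet3 encode enzymes that oxidise methylated cytosine. An intron tile of Tet1 (chr10:62846001-62847000, 6 CpGs) rose from 23.7%, 5.0% and 2.56% in W465A to 51.5%, 33.3% and 44.6% in W465A/W796A (adjusted p = 0.0404). Its W796A pooled level was 45.5%, but the W796A libraries were far apart, at 26.5%, 80.9% and 41.1%. The Tet3 intron tile (chr6:83442001-83443000, 4 CpGs, 524 bp from a TSS) did not follow: W465A/W796A had 10.6%, 16.1% and 19.7%, and W796A 40.5%, 72.9% and 39.5% (adjusted p = 0.00930).

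Imprinted genes held 6 members of 230 tiles (2.61%), near the 2.52% of all tiles. The named intron tiles of H13, the host gene of the imprinted retrogene Mcts2, lay 9544 and 13312 bp from the Mcts2 TSS. The first had 10.5%, 3.95% and 5.95% in W465A and 33.1%, 25% and 30.8% in W465A/W796A (adjusted p = 0.0139), and the second 7.80%, 5.06% and 12.6% against 43.3%, 38.1% and 36.7% (adjusted p = 0.00583). Neither differed from W796A beyond the test (adjusted p = 0.964 and 0.172). The Inpp5f intron tile (chr7:128672001-128673000, 10 CpGs) differed from these, with 6.43%, 10.6% and 0.730% in W465A/W796A and 39.1%, 65.8% and 43.3% in W796A (adjusted p = 0.000418). The promoter tile of Cdh15, a muscle cadherin gene, had 17.2%, 28.3% and 23.4% in W465A/W796A and 8.05%, 2.86% and 6.52% in W465A (adjusted p = 0.0280).

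Among members with 5 or more CpGs outside chromosome 18, Rnpep had the highest and Tedc2 the lowest mean over the 3 W464A/W465A libraries. The Rnpep tile had 27.4%, 46.2% and 26.6% in W464A/W465A, against 51.3%, 47.1% and 50% in WT, and 2 of its 4 printed CpGs were at 0% in WT. The other printed CpGs had 49.0% and 51.0% in W464A/W465A and 29.8% and 12.3% in W464A/W465A/W796A, and the tile was not called between these groups. A coding-exon tile of Tedc2 (chr17:24219001-24220000, 5 CpGs), a tubulin complex gene, had 0 of 160 reads methylated in W464A/W465A, which allows up to 1.88%, and 28.6%, 49.6% and 35% in W796A. The Hyal2 promoter tile, at a hyaluronidase gene, had 0%, 0.694% and 0% in W464A/W465A, and the Commd5 exon tile 0%, 0.893% and 0%. Commd5 reached 24.1%, 6.10% and 30.1% in W465A/W796A (adjusted p against W465A = 0.00884).

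The members with most CpGs differed in how W465A/W796A compared with W465A. Gm128 (24 CpGs) had 18%, 10.2% and 11.8% in W465A and 39.2%, 23.6% and 33.3% in W465A/W796A (adjusted p = 0.0107). The tile near Pkp2 (22 CpGs) had 16.8%, 8.28% and 8.76% against 47.0%, 24.2% and 37.8% (adjusted p = 0.00795). Gng7 (19 CpGs) had 8.67%, 4.57% and 9.42% against 16.5%, 12.5% and 15.2%, which was not called (adjusted p = 0.0847), and all its W465A/W796A libraries were below the W796A libraries (33.9%, 56.8% and 41.4%; adjusted p = 0.000458). Slc46a1, the promoter tile of the folate transporter gene with 22 CpGs, had 39.7%, 25.2% and 29.6% in W465A/W796A and 18.6%, 47.0% and 43.5% in W796A (adjusted p = 0.728).

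The limits of the selection cut through a continuum. Just inside 30% lay Pop4 (nearest TSS, pooled WT 30%) and Lrrn2 (30.04%), and just outside Micall2 (29.98%) and Parp11 (29.95%). Just inside 50% lay Cspp1 and Tbc1d8 (both 50%), and just outside Ceacam20 (50.1%) and Nags (50.07%). The same rule applied to the W796A libraries gave 3982 tiles, of which 1327 were members (41.2% of members, 33.3% of those tiles). Across the 3220 members the pooled levels of W796A and W465A/W796A had r = 0.141, and across the other tiles 0.809; members share a narrow WT range, which lowers r, and all tiles share their libraries.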

How the data were processed

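CpG methylation was measured in 18 libraries. Per CpG, the authors deposited for each library the methylated and the total read count, not normalized; all 36 count columns were used. Per the submitters' processing notes, cutadapt 1.2.1, Bismark 0.18.1 and Bowtie 1.2 were used with builds mm10 and GRCm38; removal of PCR duplicates is not given in the sources used here, so only the spread between libraries gives the precision. Every listed position was a CpG of the GRCm38 reference, and genes were taken from GENCODE M21. Reads were summed per 1 kb tile over CpGs with at least 5 reads in all libraries. The tests left out WT: a quasi-binomial logistic model over 15 mutant libraries (10 residual degrees of freedom), overdispersion moderated over tiles as in limma's squeezeVar, F test, Benjamini-Hochberg over all 154801 tiles. It was tested on simulated data. Python 3.11.15, numpy 2.4.6, scipy 1.17.1 and, for alternatives, limma 3.58.1 and edgeR 4.0.16 in R 4.3.3 were used. Members, gene lists, tests and the naming rule were chosen with earlier results of these data known. Named tiles, outside chromosome 18, were those with most CpGs per annotation class, the largest called differences with libraries that do not overlap, the highest and lowest in W464A/W465A and W796A (5 or more CpGs), up to 4 per gene list by number of CpGs, and the nearest to the selection limits. A tile is named by the gene it overlaps, else by the nearest protein-coding TSS.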

Additional observations from a re-analysis of the deposited data

How the results depend on the processing

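Values are the percent of members called unless said otherwise. Of 324 alternative values, 292 stayed on the same side of the threshold or within the range allowed, and none reversed. W465A/W796A against W465A (28%) became 15.3% with tiles of 1 or more CpGs, 9.41% with a 25-point minimum, 13.7% without squeezing and 1.09% with the library offset. W464A/W465A/W796A against W465A/W796A (61.6%) became 18% with the 25-point minimum and 0.124% with the offset. W465A/W796A against W796A (33.7%) became 3.26% with only the compared groups fitted, 10.3% with the offset, 16.1% with limma and 19.6% with edgeR. The interaction (0%) became 6.96% with only the compared groups, 0.0311% with limma and 0.280% with edgeR. The offset takes up shifts that are common to all tiles; other causes were not tested.

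Leaving out 1 library at a time gave 0.932% to 44.0% for W465A/W796A against W465A, 33.2% to 70.7% (74.9% with members chosen without WT replicate 2) for W464A/W465A/W796A against W465A/W796A, 12.7% to 60.4% for W465A/W796A against W796A, 0% to 5.28% for the interaction, and 0% throughout for the other 2 tests. Member means ranged from 35.2% to 48.3% in WT, 38.0% to 51.0% in W796A, 10.3% to 15.7% in W465A, 22.6% to 35.3% in W465A/W796A, 7.66% to 11.8% in W464A/W465A and 7.79% to 11.9% in W464A/W465A/W796A. With members chosen without WT replicate 2, 7463 tiles qualified and the means were 48.3% in WT, 35.3% in W465A/W796A, 11.8% in W464A/W465A and 11.9% in W464A/W465A/W796A; chosen without WT replicate 1, W465A/W796A had 22.6%. Leaving out CpGs at 2% or less, an alternative chosen after seeing the data, gave 2778 members and moved no count by over 1.5 times.

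Replicate numbers were not treated as pairs: in none of the 10 pairs of mutant groups did every same-numbered pair of deviations have r above 0.1. That check left out WT and does not show that the libraries were unpaired. Mean member levels rose in the order of replicates 1, 3 and 2 in WT, W796A, W464A/W465A and W464A/W465A/W796A. They fell in that order in W465A and W465A/W796A. With a replicate block the shares were 23.0%, 59.8% and 28.5% for these 3 comparisons and 0% for the other tests. Tiles of few reads limit single members: the least covered named tile had 21 reads in 1 library.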

Other observations

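Both strands of each 1 kb tile were searched in the reference. The octamer of Oct4 (ATGCAAAT) was in 4.91% of members, 4.89% of the other tiles of the density allowed and 4.56% of all tiles. The Esrrb word TCAAGGTCA was in 3.35%, 2.80% and 2.61%, part of the CTCF core (CNAGGNGGC) in 19.4%, 14.9% and 17%, the ZFP57 word TGCCGC in 16.3%, 14% and 18.7%, and the E-box CACGTG in 18.4%, 17% and 17.5%. Members also had a higher GC content and a higher median CpG density than the other tiles of the density allowed, and the part of these in the shares was not tested. Members with the octamer had 26.4% in W465A/W796A and those without it 26.3%; for the Esrrb word the values were 28.1% and 26.3%. A match is only these letters and not a bound site. Members were found on every autosome, from 1.80% of the tiles of the density allowed on chromosome 16 to 3.07% on chromosome 4.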
